A study of Bos taurus with 12 samples.

Results

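The genes of the agouti and melanocortin system that are described here are ASIP, MC1R, MC2R, MC4R and POMC. Their probe sets were found by gene name: every probe set of the bovine array whose platform annotation gave exactly 1 gene symbol, and that symbol one of these 5, was taken. This gave 7 of the 24128 deposited probe sets, standing for 5 of 9155 genes with a symbol of their own, 1 each for ASIP, MC1R and MC4R and 2 each for MC2R and POMC. Of the 7, 6 passed a filter that left out the 30% of probe sets with the lowest mean signal. The 1 left out, an MC2R probe set, is described from a fit without that filter.

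RNA was taken from fat of Japanese Black (JB) steers, a beef breed known for marbled meat, and of Holstein (HS) steers, a dairy breed. Steers are castrated males. Each breed was sampled in intramuscular fat (IMF), which lies within muscle, and in subcutaneous fat (SCF), from under the skin. The groups JB IMF, HS IMF, JB SCF and HS SCF held 3 samples each. In each breed, samples 1 to 3 are IMF and samples 4 to 6 SCF, and all 12 samples came from animals on energy-rich feeding, so that no group shows these breeds on another diet. The labels give no age. They do not say whether a group holds different animals or whether the same animals gave both kinds of fat, so the p-values measure only the spread between samples, part of which may be technical.

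The melanocortins are peptides cut from the precursor protein POMC, among them ACTH and alpha-MSH. They act on a family of G protein-coupled receptors that raise cyclic AMP: MC1R on pigment cells, where it switches melanin synthesis toward dark eumelanin, MC2R as the ACTH receptor of the adrenal cortex and of rodent fat cells, and MC4R in brain circuits of appetite and energy use. ASIP, the agouti signalling protein, is a secreted antagonist of MC1R and MC4R. It is known from coat colour, and mice in which it is made in all tissues are yellow and obese, while human fat is known to express it.

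Array medians of the deposited signal were 77.6 to 88.3 in 11 samples and 58.8 in HS IMF 3, which also correlated least with its own group (0.862, against 0.888 to 0.975 in the other 11 samples). The BioB spike-in control was highest in HS IMF 2 (1276) and HS SCF 4 (1089), against 247 to 629 in the others. Fat cell markers were bright in all groups: the summed signal of the 7 measured adipocyte markers of a list of 8 was 19013 to 44069 in JB IMF, 27482 to 32594 in HS IMF, 45766 to 50972 in JB SCF and 41056 to 57391 in HS SCF. The summed signal of 9 of 10 muscle fibre markers was 59664 to 90585 in JB IMF, 41007 to 81599 in HS IMF, 5177 to 10194 in JB SCF and 4340 to 17201 in HS SCF, so that muscle fibre markers were bright in IMF of both breeds. The number of arrays, 3 a group, limits the precision.

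ASIP was higher in JB than in HS fat of both depots. Its deposited signal, a linear intensity, was 365, 678 and 355 in JB IMF samples 1 to 3, against 25.5, 25.7 and 19.9 in HS IMF samples 1 to 3. In SCF it was 493, 787 and 788 in JB samples 4 to 6, against 10.4, 0.06 and 33.9 in HS samples 4 to 6. All 6 JB samples were high and all 6 HS samples low, with no overlap in either depot. The lowest JB signal was 10.5 times the highest HS signal over all 12 samples. Among the 6 JB samples, the highest signal was 2.22 times the lowest.

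**Figure D1:**
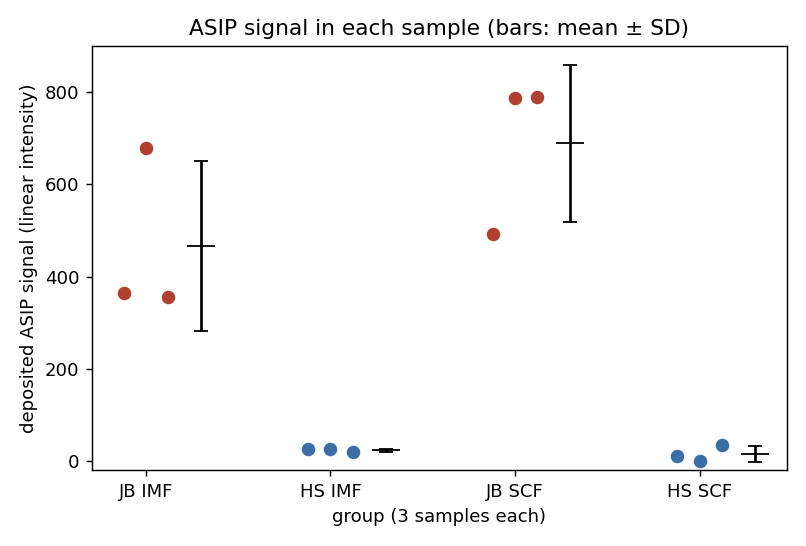
Deposited ASIP signal (linear intensity, vertical axis) of each of the 12 samples, by group from JB IMF to HS SCF; bars give the mean ± SD of the 3 samples of a group. The JB samples lie between 355 and 788, and the HS samples between 0.06 and 33.9.

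In IMF the mean ASIP signal was 466 ± 184 in JB and 23.7 ± 3.32 in HS (SD, n = 3 each). Differences were tested on log2(signal + 16) after quantile normalization, a scale that understates the change of dim genes. On it ASIP was higher in JB IMF by 3.40 ± 0.40 (SE, 95% interval 2.53 to 4.26), which is 10.5-fold, and it passed (limma, Benjamini-Hochberg adjusted p = 0.0151). The threshold was an adjusted p of 0.05. It was the 1 of the 6 tested members to pass in IMF, where 0.0238% of all 16812 probe sets did. A single probe set, with no gene name, had a larger difference, in the other direction, and did not pass. The call was lost when JB IMF 2, JB IMF 3, HS IMF 1 or HS IMF 3 was left out, at differences of 3.07, 3.56, 3.41 and 3.42 and adjusted p of 0.0692, 0.0595, 0.0850 and 0.0689 by the same test, and it passed without each of the other 8 samples.

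In SCF the mean ASIP signal was 689 ± 170 in JB and 14.8 ± 17.3 in HS (SD, n = 3 each). The log2 difference was 4.49 ± 0.40 (SE, 95% interval 3.63 to 5.35), or 22.5-fold higher in JB (limma, Benjamini-Hochberg adjusted p = 0.00147). ASIP was the 1 member and the 1 probe set to pass in SCF, 0.00595% of all. SELE, the endothelial adhesion molecule E-selectin, had a larger difference (5.15 ± 1.09) and did not pass (adjusted p = 0.600). The HS signals are close to 0, so the fold depends on the constant added before the logarithm: with 1 added in place of 16, the log2 difference was 6.25, and it did not pass (adjusted p = 0.239). ASIP passed in SCF in each of the 12 fits that left out 1 sample.

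Over both depots the log2 difference of ASIP was 3.94 ± 0.28 (SE, 95% interval 3.33 to 4.55), or 15.4-fold higher in JB in signal plus 16 (limma, Benjamini-Hochberg adjusted p = 0.000128). The HS signals are near the floor, so this size too depends on the constant, at 5.13 with 1 added and 2.78 with 64 added. ASIP was the 1 of the 6 members to pass, where 0.0297% of all probe sets did. It was the largest breed difference of all 16812 probe sets, in either direction, with 1, 16 or 64 added, and had the smallest p with 16 or 64 added and the next smallest with 1. The next in size, PRSS2, an anionic trypsinogen gene, was at 2.88 ± 1.11 and did not pass. In all, 46 probe sets were more than 2-fold higher in JB in both IMF and SCF, and 42 more than 2-fold lower in both. ASIP was the only one more than 8-fold higher in both. Over both depots it passed in all 23 alternatives tried, at an adjusted p of 5.12e-05 to 0.0276.

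All 6 HS samples lay below the limit under which a probe set was left out as dim (log2 of 5.63 after normalization), at a mean log2 of 5.07 in HS against 9.02 in JB. ASIP therefore entered the test through its JB samples alone. In the fit with no filter the breed calls in IMF, in SCF and over both depots all remained (adjusted p = 0.0156, 0.00143 and 0.000118). A single probe set reads ASIP on this array, so its values have no second probe set to set beside them.

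ASIP did not pass in any comparison of the depots. In order of mean log2 level the groups ran JB SCF (9.29 ± 0.42), JB IMF (8.74 ± 0.56), HS IMF (5.35 ± 0.067) and HS SCF (4.80 ± 0.79), given as mean ± SD of 3 samples each. Of the neighbours in this order, JB IMF and HS IMF differed as tested above, and the neighbours of the same breed did not pass. IMF minus SCF was −0.54 ± 0.40 (SE, 95% interval −1.41 to 0.32) in JB (limma, Benjamini-Hochberg adjusted p = 0.651) and 0.55 ± 0.40 (−0.31 to 1.41) in HS (adjusted p = 0.428). The HS value was 0.17 without HS SCF 5, 0.95 without HS SCF 6 and 1.68 with 1 added before the logarithm, and the JB value ran from −0.87 without JB IMF 2 to −0.37 without JB IMF 3; none of these passed. Over both breeds the depot difference was 0.0038 ± 0.28 (−0.61 to 0.61; adjusted p = 0.995), with 0 of the 6 members passing, where 11.0% of all probe sets did, and 0 under an unadjusted p of 0.05, where 27.2% of all were. In JB the mean signal in IMF was 0.676 times that in SCF. The interaction, the IMF breed difference less the SCF one, was −1.10 ± 0.56 (SE, 95% interval −2.32 to 0.12; unadjusted p = 0.0740, adjusted p = 0.990). For that interaction 0 probe sets passed by limma, and 359, or 2.14%, had an unadjusted p under 0.05.

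Adipocyte marker signal stood beside ASIP as follows. In JB IMF the summed signal of the 7 markers was 35067, 44069 and 19013 in samples 1 to 3, and in JB SCF it was 50972, 47803 and 45766 in samples 4 to 6. In JB IMF the highest ASIP signal was in the sample with the highest marker sum. In JB SCF the ASIP signals of samples 5 and 6 were nearly equal, at 787 and 788. Sample 4, with the highest marker sum of JB SCF, had the lowest ASIP signal there, 493. In HS the sums were 27508, 32594 and 27482 in IMF samples 1 to 3 and 41056, 45753 and 57391 in SCF samples 4 to 6, beside ASIP signals of 0.06 to 33.9. The 7 markers had a median breed difference over both depots of −0.020, against 0.043 over all probe sets tested, with 0 passing by limma and 0 under an unadjusted p of 0.05, where 10.6% of all were. Their median depot difference was −0.83, against −0.060 over all, with 7 of 7 negative, 0 passing where 11.0% of all did, and 5 under an unadjusted p of 0.05 where 27.2% of all were. In bulk tissue, fewer cells of a type and less RNA per cell cannot be told apart, and the part of fat cell content in the ASIP levels within JB was not tested.

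**Figure D2:**
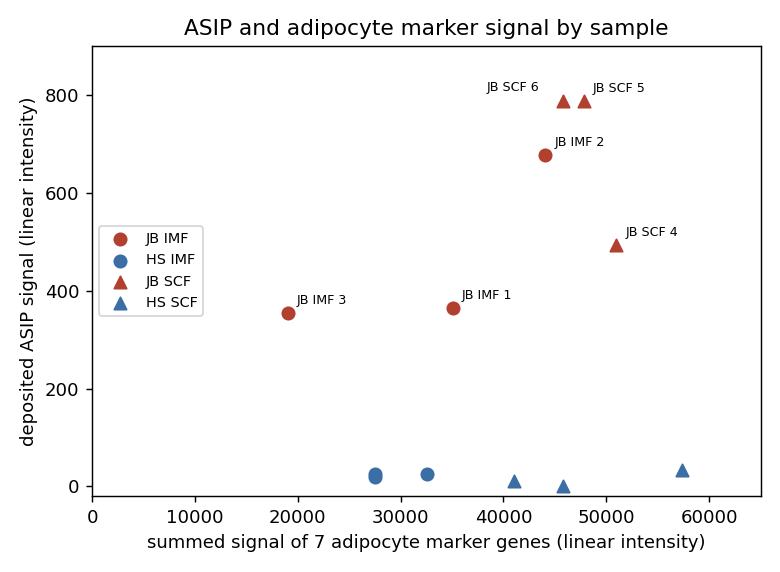
Deposited ASIP signal (linear intensity, vertical axis) against the summed signal of 7 adipocyte marker genes (linear intensity, horizontal axis), 1 point per sample, with colour for breed and shape for depot. JB and HS samples cover overlapping ranges of marker signal, 19013 to 50972 in JB, against 27482 to 57391 in HS, and lie far apart in ASIP.

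Red cell markers were examined as well. The summed signal of the 6 measured of 6 erythroid markers was 347 to 528 in JB IMF, 516 to 824 in HS IMF, 592 to 817 in JB SCF and 458 to 964 in HS SCF, so that the breeds overlapped in both depots. In IMF all 5 tested were lower in JB, with a median difference of −0.80 against 0.096 over all probe sets. By limma 0 of the 5 passed, and 2 had an unadjusted p under 0.05, where 10.2% of all probe sets did: HBB, the beta globin (−1.53 ± 0.66 SE), and HBM, another globin gene (−1.27 ± 0.51). Their part in the IMF results was not tested, and in SCF their median difference was 0.0076.

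Markers of skin and pigment cells were examined because agouti is best known from skin. The summed signal of 4 of 8 skin epithelium markers was 447 to 1058 in JB IMF, 462 to 831 in HS IMF, 1101 to 1633 in JB SCF and 1053 to 1628 in HS SCF, so that the breeds overlapped in both depots. The summed signal of 5 of 6 pigment cell markers was 95.2 to 102 in JB IMF, 109 to 188 in HS IMF, 108 to 122 in JB SCF and 118 to 177 in HS SCF. JB was lower in IMF, with no overlap, and the breeds overlapped in SCF. Of single probe sets, 16.8% did not overlap between the breeds in IMF, 13.0% with JB higher and 3.79% with JB lower. The only one of the 5 to pass the dim filter was SOX10, a neural crest transcription factor, at 53.8 to 104 over the 12 samples. The part of pigment cells in the ASIP levels was not tested. The defining pigment genes TYR, the tyrosinase of melanin synthesis, and TYRP1, its related enzyme, had median signals of 5.10 and 2.09 over the 12 samples, with lowest values of 0.02 and 0. Their highest values were 54.9 for TYR in HS IMF 3 and 60.8 for TYRP1 in HS SCF 5. These samples had the highest pigment cell sums of their groups, 188 and 177, but TYR and TYRP1 are themselves part of the sums.

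POMC, the melanocortin precursor, was read by 2 probe sets, whose signals differ widely and are not set against each other here. Ranked from dim to bright by mean level, the brighter POMC probe set stood at 99.8% of probe sets and the dimmer at 68.6%. Which transcripts the probes match was not examined. The brighter may read another transcript, so its values may not describe POMC. The brighter gave 11579, 10581 and 11738 in JB IMF samples 1 to 3, against 11078, 7157 and 11765 in HS IMF samples 1 to 3. In SCF it gave 11996, 13344 and 11740 in JB samples 4 to 6, against 6984, 11929 and 12143 in HS samples 4 to 6. The breeds overlapped in both depots, and the 2 lowest values were those of HS SCF 4 and HS IMF 2, the samples with the highest BioB control signal. What the control has to do with this was not tested. The breed difference was 0.034 ± 0.22 in IMF, 0.13 ± 0.22 in SCF and 0.081 ± 0.15 (SE, 95% interval −0.25 to 0.41) over both depots, where the limma, Benjamini-Hochberg adjusted p was 0.855. Without HS IMF 2 and HS SCF 4 together, a setting chosen after the data were seen, the difference over both depots was −0.043.

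The dimmer POMC probe set gave 188, 201 and 151 in JB IMF samples 1 to 3, against 307, 100.2 and 95.3 in HS IMF samples 1 to 3. In SCF it gave 204, 294 and 155 in JB samples 4 to 6, against 280, 250.1 and 356 in HS samples 4 to 6. The breeds overlapped in both depots. Its difference was −0.0067 ± 0.34 in IMF, −0.54 ± 0.34 in SCF and −0.27 ± 0.24 (SE, 95% interval −0.79 to 0.25) over both (limma, Benjamini-Hochberg adjusted p = 0.664). Between the depots it differed by −0.41 ± 0.24 (adjusted p = 0.294) and the brighter probe set by −0.038 ± 0.15 (adjusted p = 0.898).

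MC1R, the receptor on pigment cells that ASIP blocks, was dim. Its signal was 42.1, 47.1 and 49.9 in JB IMF samples 1 to 3, against 52.6, 83.5 and 52.7 in HS IMF samples 1 to 3. In SCF it was 39.4, 29.7 and 46.8 in JB samples 4 to 6, against 53.1, 50.7 and 37.0 in HS samples 4 to 6. The breeds did not overlap in IMF, where JB was lower, and overlapped in SCF. In IMF 2 of the 6 members did not overlap between the breeds, ASIP and MC1R, while 16.8% of all probe sets did not. These were 13.0% with JB higher and 3.79% with JB lower, judged on the deposited signals. The log2 difference of MC1R was −0.48 ± 0.24 in IMF (limma, Benjamini-Hochberg adjusted p = 0.491), −0.21 ± 0.24 in SCF (adjusted p = 1.000) and −0.35 ± 0.17 (SE, 95% interval −0.71 to 0.016) over both depots (adjusted p = 0.480). The depot difference was 0.35 ± 0.17 (−0.014 to 0.71; adjusted p = 0.202).

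MC2R, the ACTH receptor, was read by 2 probe sets. The brighter gave 99.2, 122 and 86.1 in JB IMF samples 1 to 3, against 102, 156 and 127 in HS IMF samples 1 to 3. In SCF it gave 163, 121 and 195 in JB samples 4 to 6, against 269, 142 and 121 in HS samples 4 to 6. The breeds overlapped in both depots. The difference was −0.60 ± 0.35 in IMF (limma, Benjamini-Hochberg adjusted p = 0.538), −0.16 ± 0.35 in SCF and −0.38 ± 0.25 (SE, 95% interval −0.93 to 0.16) over both (adjusted p = 0.562). The depot difference was −0.27 ± 0.25 (adjusted p = 0.531).

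The dimmer MC2R probe set was the member left out as dim. It gave 4.89, 11.7 and 12.4 in JB IMF samples 1 to 3, against 13.8, 13.1 and 9.62 in HS IMF samples 1 to 3. In SCF it gave 16.3, 10.4 and 13.1 in JB samples 4 to 6, against 6.22, 5.44 and 14.1 in HS samples 4 to 6. The breeds overlapped in both depots. In the fit with no filter its difference was −0.20 ± 0.22 in IMF, 0.25 ± 0.22 in SCF and 0.027 ± 0.16 (SE) over both (limma, Benjamini-Hochberg adjusted p = 0.962).

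MC4R, the receptor of brain appetite circuits, lay above the dim limit in HS SCF 4, HS IMF 3, JB IMF 1 and HS IMF 1 and below it in the other samples. Its signal was 44.4, 22.9 and 31.1 in JB IMF samples 1 to 3, against 36.0, 12.1 and 90.9 in HS IMF samples 1 to 3. In SCF it was 25.0, 13.8 and 14.5 in JB samples 4 to 6, against 1515, 27.3 and 29.5 in HS samples 4 to 6. HS SCF 4 stood far above the other 11 samples, by 14.3-fold over the next on the scale of signal plus 16. That array held 2 probe sets with such a gap among the 16812, the other being that of SMPD3, a sphingomyelinase gene, while HS IMF 3 held 22 and the other samples 0 to 2.

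The breeds did not overlap for MC4R in SCF, where all 3 JB samples were lower. In SCF 2 of the 6 members did not overlap, ASIP and MC4R, where 12.2% of all probe sets did not. The MC4R difference was −0.38 ± 1.10 in IMF (limma, Benjamini-Hochberg adjusted p = 0.903), −2.11 ± 1.10 in SCF (95% interval −4.52 to 0.29; adjusted p = 1.000) and −1.25 ± 0.78 over both (SE, adjusted p = 0.552). Without HS SCF 4 it fell below the dim limit, and in the fit with no filter it differed by −0.39 in SCF and by −0.38 over both depots. The depot difference, −0.34 ± 0.78, was 0.53 without that sample.

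**Figure D3:**
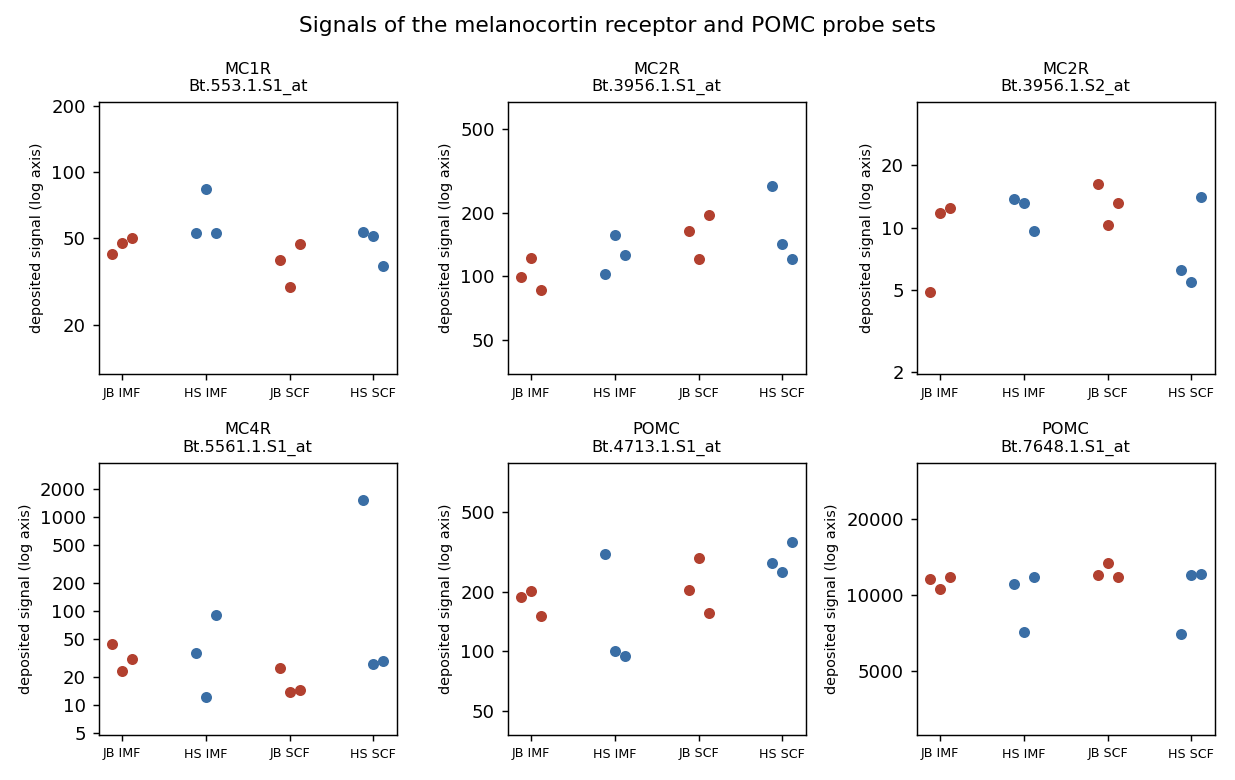
Deposited signals (vertical log axes, 1 panel per probe set) of MC1R, MC2R, MC4R and POMC in each of the 12 samples, with the probe set above each panel, by group from JB IMF to HS SCF. MC4R stands at 1515 in HS SCF 4 and between 12.1 and 90.9 in the others, and the breeds overlap in both depots in all panels but those of MC1R and MC4R.

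**Figure D4:**
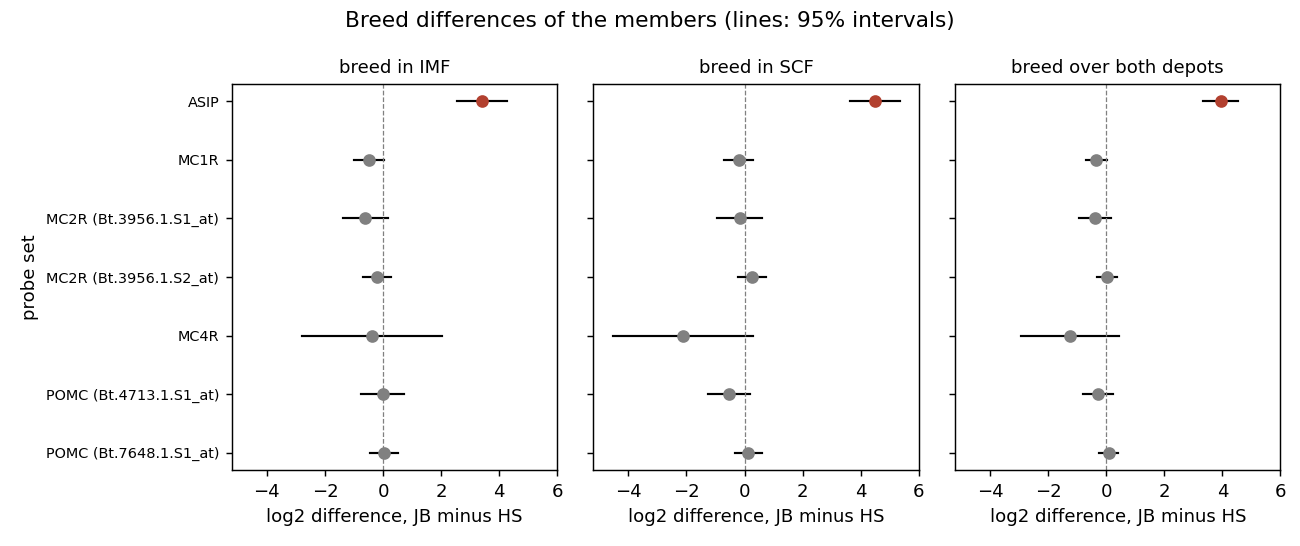
Breed differences (JB minus HS, horizontal axes, log2 of signal plus 16) of the 7 member probe sets in IMF, in SCF and over both depots; lines give 95% intervals. ASIP alone lies clear of 0 in each panel, at 3.40, 4.49 and 3.94.

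Proteins that process POMC or act on peptides were described from a list of 7 genes, all measured and 4 of them bright enough to be tested. By limma 0 of the 4 passed between the breeds, and 1 had an unadjusted p under 0.05 over both depots, where 10.6% of all probe sets did (median difference 0.35, against 0.043 over all probe sets tested). CPE, carboxypeptidase E, which trims the cut peptides, had a signal of 247 to 2952 (median 923) in JB, against 84.3 to 329 (median 182) in HS. For CPE the breeds overlapped over both depots and in SCF but not in IMF, where 16.8% of the tested probe sets did not. Its difference was 1.88 ± 0.44 (SE) over both depots (limma, Benjamini-Hochberg adjusted p = 0.304) and 2.66 ± 0.62 in IMF (adjusted p = 0.485). PAM, which amidates peptides, was at 0.44, PRCP, a carboxypeptidase that cleaves alpha-MSH, at 0.27 and DPP4, a dipeptidyl peptidase of the cell surface, at −0.23. The convertases PCSK1 and PCSK2, which cut POMC, and SCG5, a chaperone of PCSK2, were left out as dim, with signals of 0 to 37.2 and 0 to 14.0 over the 12 samples for the convertases. SCG5 gave 25.0 to 109 in JB, against 0.01 to 78.1 in HS, and differed by 1.17 ± 0.34 (SE) in the fit with no filter (adjusted p = 0.392). Within each depot its breeds did not overlap, as 16.8% of the tested probe sets did not in IMF and 12.2% in SCF.

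Between the depots, where 11.0% of all probe sets passed, DPP4 was the one of these 4 to pass, lower in IMF by a log2 difference of −0.94 ± 0.27 (SE; limma, Benjamini-Hochberg adjusted p = 0.0457), with signals of 27.6 to 39.2 in IMF, against 34.3 to 163 in SCF. With 1 sample left out it passed in 2 of 12 fits, those without JB SCF 6 or HS SCF 6, at differences of −1.12 to −0.74 in the 12. By the same test DPP4 was also lost with no filter and with 50% left out as dim (adjusted p = 0.0501 in both). Median centring (0.0513) and 64 added before the logarithm (0.0676) lost it too. So did leaving out HS SCF 4 together with HS IMF 2 (0.0695) or HS IMF 3 (0.0701). The list's median depot difference was −0.28, against −0.060 over all. Muscle fibre markers were brighter in IMF, and the part of tissue content in the DPP4 result was not tested.

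Of 10 further receptors, accessory proteins and antagonists, 3 were measured. MGRN1, mahogunin, a ubiquitin ligase of the agouti pathway in mice, was tested and did not pass, with a signal of 779 to 1476 in JB, against 437 to 1507 in HS and a difference of 0.014 ± 0.21 over both depots (limma, Benjamini-Hochberg adjusted p = 0.981). AGRP, the agouti-related antagonist of brain melanocortin receptors, and ATRN, attractin, an accessory receptor of agouti in mice, were dim, at 1.40 to 13.6 and 7.69 to 24.5 over the 12 samples.

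The cyclic AMP pathway downstream of the receptors was taken as 27 genes, of which 18 were measured and tested. Between the breeds 0 of 18 passed by limma over both depots, in IMF or in SCF, and over both depots 3 had an unadjusted p under 0.05, where 10.6% of all probe sets did. The median difference over both was 0.099 against 0.043 over all. The 4 with the smallest p over both depots were PRKACB, a catalytic subunit of protein kinase A (0.64 ± 0.19 SE), CREB1, the transcription factor it activates (−0.49 ± 0.18), CRTC1, a coactivator of CREB (−0.49 ± 0.20), and ADCY7, an adenylate cyclase (0.43 ± 0.24). CREB1 had signals of 83.7 to 106 in JB, against 107 to 147 in HS, which did not overlap. Over both depots 1.02% of probe sets did not, 0.726% with JB higher and 0.297% with JB lower. The limma, Benjamini-Hochberg adjusted p of CREB1 was 0.450.

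Between the depots 2 of the 18 passed, both higher in IMF, a share close to the 11.0% of all probe sets that passed. ADCY2, an adenylate cyclase, had signals of 99.7 to 953 in the 6 IMF samples, against 0.01 to 14.0 in the 6 of SCF, and differed by 4.70 ± 0.41 (SE; limma, Benjamini-Hochberg adjusted p = 1.93e-05). Its SCF signals are close to 0, so the size depends on the added constant, at 7.71 with 1 added and 3.02 with 64 added, and it passed with both. PRKACA, a catalytic subunit of protein kinase A, differed by 0.60 ± 0.16 (adjusted p = 0.0344), and was lost without any of the JB SCF samples, JB IMF 1, JB IMF 3, HS SCF 4 or HS SCF 6, at differences of 0.52 to 0.65 and adjusted p of 0.0537 to 0.103. By the same test PRKACA was also lost with median centring (0.52, adjusted p = 0.0740) and as deposited (0.42, 0.203). It was lost without HS IMF 2 and HS SCF 4 together as well (0.52, 0.0597). Of the 9 muscle fibre markers 7 passed in the same direction, with a median difference of 6.39, and their part in the results for ADCY2 and PRKACA was not tested. The list's own median was −0.13, against −0.060 over all.

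Pigment cell genes were 17, with 11 measured and 5 tested. Between the breeds 0 of the 5 passed by limma, where 0.0297% of all probe sets did over both depots. None had an unadjusted p under 0.05, where 10.6% of all did over both depots. The median difference over both depots was −0.097 against 0.043 over all. They were SOX10, a neural crest transcription factor (−0.34 ± 0.20 SE), RAB27A, of melanosome transport (0.41 ± 0.28), KIT, the stem cell factor receptor (−0.31 ± 0.34), MITF, the transcription factor of pigment cells (0.41 ± 0.53), and KITLG, the ligand of KIT (−0.097 ± 0.27). With 1 sample left out MITF ran from 0.026 without HS IMF 1 to 0.94 without HS IMF 2, and KIT from −0.59 without HS SCF 6 to −0.020 without HS SCF 4. Between the depots 0 of the 5 passed, where 11.0% of all did, and 1, KIT, had an unadjusted p under 0.05, where 27.2% of all did.

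Genes of fat cell differentiation and lipid synthesis were 20, with 18 measured and 17 tested. Between the breeds 0 of 17 passed by limma in IMF, in SCF or over both depots, and over both depots 2 had an unadjusted p under 0.05, a share close to the 10.6% of all probe sets. The median over both was −0.12 against 0.043 over all, with 12 of 17 negative. INSIG1, a brake on sterol-dependent SREBP processing, was at −0.79 ± 0.27 (SE; limma, Benjamini-Hochberg adjusted p = 0.447), LPL, lipoprotein lipase, at −0.76 ± 0.31 (adjusted p = 0.450), SREBF1, a transcription factor of lipogenesis, at −0.24 ± 0.17 and FASN, fatty acid synthase, at −0.45 ± 0.33. Between the depots 2 of the 17 passed, a share close to the 11.0% of all probe sets, and both were lower in IMF: ACACA, acetyl-CoA carboxylase, by a log2 difference of −1.58 ± 0.40 (adjusted p = 0.0263), and SCD, the stearoyl-CoA desaturase, by −0.87 ± 0.21 (adjusted p = 0.0213). The list's median depot difference was −0.83, against −0.060 over all, with 15 of 17 negative. By limma 12 of the 17 had an unadjusted p under 0.05, where 27.2% of all probe sets did. Leaving out JB SCF 4, JB SCF 5, HS SCF 6, HS IMF 3, JB IMF 1 or JB IMF 3 lost ACACA, at adjusted p of 0.0502 to 0.0703, and leaving out HS SCF 5, HS SCF 6, JB IMF 1 or JB IMF 3 lost SCD, at 0.0509 to 0.0562. The 7 adipocyte markers, some of them on this list too, also had a median depot difference of −0.83, and muscle fibre markers were brighter in IMF. The part of fat cell and muscle content in the results for ACACA and SCD was not tested.

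The genes next to ASIP were looked at because in sheep a duplication joins ASIP to the promoter of its neighbour ITCH. In RefSeq (assembly ARS-UCD2.0), 3 of the 10 genes on the 5 places to either side were measured. ITCH, a ubiquitin ligase, had median signals of 127 in JB IMF, 116 in HS IMF, 132 in JB SCF and 113 in HS SCF, and differed between the breeds by 0.094 ± 0.20 (SE) over both depots (limma, Benjamini-Hochberg adjusted p = 0.871). RALY, an RNA-binding protein, differed by 0.18 ± 0.21 (adjusted p = 0.745).

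AHCY, adenosylhomocysteinase of the methylation cycle, was at 1293 to 1605 in JB IMF and 681 to 1063 in HS IMF. These did not overlap, as 16.8% of all probe sets did not, and the log2 difference in IMF was 0.37 ± 0.39 (SE). In SCF it was at 2248 to 3850 in JB and 923 to 3327 in HS, which overlapped. Its breed difference was 0.54 ± 0.28 (SE) over both depots and did not pass (adjusted p = 0.495). Between the depots it passed, lower in IMF at −0.95 ± 0.28 (limma, Benjamini-Hochberg adjusted p = 0.0481). With 1 sample left out it passed only without JB SCF 4, HS IMF 3 or HS SCF 4, at differences of −1.17 to −0.75 over the 12 fits and adjusted p of 0.0103 to 0.118. By the same test AHCY was also lost with no filter (adjusted p = 0.0522) and with 1 added before the logarithm (0.0579). The part of tissue content in its depot difference was not tested.

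The genes whose pattern over the 12 samples was most like that of ASIP were named by the root mean square difference between their centred log2 profile and that of ASIP, over 7807 genes with 1 symbol. The centred ASIP profile itself has a root mean square of 2.04, and the median over all probe sets was 2.07. The 6 most like were BOLA-N, an MHC class I gene (0.985), GNB4, a G protein beta subunit (1.22), LTBP2, a latent TGF-beta binding protein of the matrix (1.34), GHR, the growth hormone receptor (1.39), SLC39A14, a zinc and iron transporter (1.40), and ACSL3, an acyl-CoA synthetase (1.42). Since they were picked for a pattern that follows breed, their breed differences are descriptions.

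BOLA-N had a signal of 1034 to 2231 in JB, against 116 to 474 in HS, with a breed difference over both depots of 2.54 ± 0.36 (SE). GNB4 had 402 to 687 in JB, against 12.9 to 195 in HS, with a difference of 2.34 ± 0.38, and LTBP2 had 176 to 457 in JB, against 25.2 to 80.5 in HS, with 1.75 ± 0.21. SLC39A14 had 453 to 1630 in JB, against 74.8 to 393 in HS (1.52 ± 0.34), and ACSL3 had 192 to 811 in JB, against 20.8 to 131 in HS (1.89 ± 0.40). GHR had 528 to 2695 in JB, against 99.6 to 913 in HS (1.81 ± 0.43), and was the one of the 6 whose breeds overlapped. Other probe sets of the same genes ran lower, at 0.92 for LTBP2 and 1.29 and 1.22 for ACSL3, and the other probe sets of GHR at −0.41 to 0.30.

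**Figure D5:**
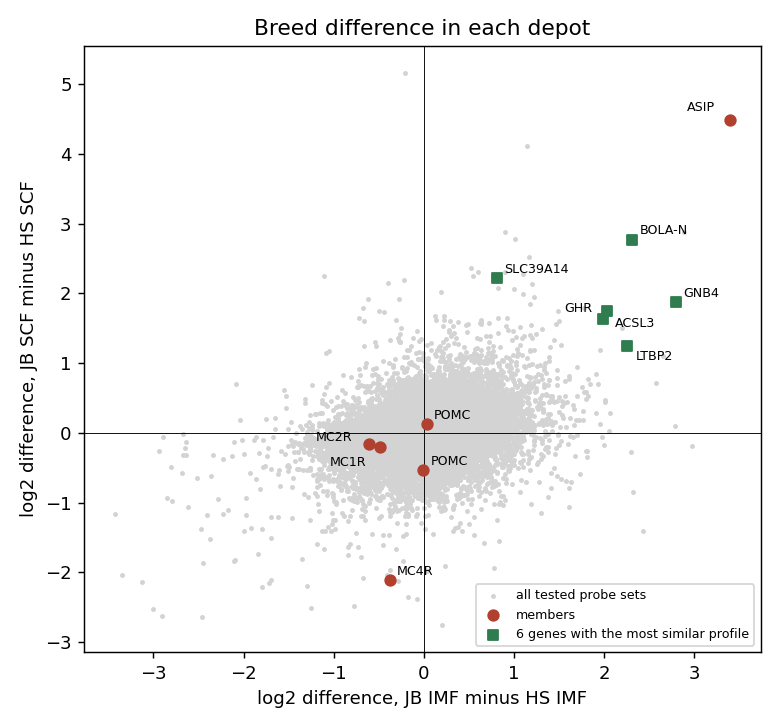
Breed difference in SCF (vertical axis) against that in IMF (horizontal axis), both JB minus HS in log2 of signal plus 16, for all 16812 tested probe sets (grey), the tested member probe sets (red) and the 6 genes most like ASIP (green squares). ASIP lies at 3.40 and 4.49, apart from the other members, and MC4R at −0.38 and −2.11.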

How the data were processed

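Biotin-labelled cRNA was run on Affymetrix bovine arrays, and the deposited values are linear intensities of 24128 probe sets in 12 samples, 2303 of them 0. Software named in the submitters' processing notes is GCOS 1.1.1 and Affymetrix Expression Console 1.1, and how signals were summarized or scaled is not given in the sources used here. Signals were taken as log2(signal + 16) and quantile normalized. The 112 control probe sets and the 30% of the other 24016 with the lowest mean were left out, which left 16812. Symbols came from the platform annotation, updated through Entrez identifiers for 13263 of the 13292 probe sets with 1 symbol (86 had several, 10638 none). Lists use the brightest probe set of a gene.

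In R 4.3.3, limma 3.58.1 (lmFit with 4 group means, then eBayes) was run on all 12 samples, with 8 residual degrees of freedom, 4.05 prior ones, Benjamini-Hochberg adjustment over all probe sets tested and a threshold of 0.05. Differences are JB minus HS, IMF minus SCF, and, for the interaction, IMF less SCF breed difference. The fit was tested on simulated data. Alternatives varied the filter, normalization, added constant (1 or 64), variance model, array weights, samples in the fit and replicate block, and left out samples. Same-numbered samples of the breeds did not deviate together (correlations −0.28 to 0.12), so the numbers were not taken as pairs. The named genes are all member probe sets, the 6 genes most like ASIP, its measured neighbours, and per list the genes that passed and otherwise up to 4 with the smallest p. The 5 members and the lists were chosen with earlier results of these data known. SELE, PRSS2, SMPD3, SCG5, KITLG, the globin genes and the dim genes of the lists were named after their values were seen. Figures were drawn with Python 3.11.15 and matplotlib 3.10.9.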

Additional observations from a re-analysis of the deposited data

Results flagged for a closer look

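In each set of 6 samples (a breed or a depot), the highest and lowest value of each member were set against the others by Dixon's ratio, the gap to the nearest value over the whole range, on normalized log2 values. Of 28 sets examined 3 were above Dixon's critical value for 6 samples. Chance exceeds that value in about 1 set in 20 when all 6 values come from 1 normal population. Each set here pools groups, and the sets share samples, so that rate need not hold for them. MC4R in SCF was highest in HS SCF 4, with a ratio of 0.899 and a signal of 1515 against 29.5 in the next sample. The brighter POMC probe set in SCF was lowest in the same sample, with a ratio of 0.670 and a signal of 6984. The dimmer MC2R probe set in IMF was lowest in JB IMF 1, with a ratio of 0.682 and a signal of 4.89 against 9.62 in the next sample.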

How the results depend on the processing

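ASIP was higher in JB in every alternative run: it passed over both depots in 23 of 23 (2.78 to 5.13), in SCF in 22 of 24 (3.12 to 6.25) and in IMF in 15 of 24 (2.43 to 4.00). In IMF it missed with 1 added before log2 (4.00, adjusted p = 0.475), array weights (3.16, 0.147) and only the compared groups (3.32, 0.155). It also missed without HS IMF 3 and HS SCF 4 together (3.42, 0.0768) and with a replicate block (3.40, 0.0525). The labels do not say whether same-numbered samples of the breeds belong together. With 1 sample left out the range was 3.07 to 3.56 in IMF. In SCF it missed with 1 added (6.25, 0.239) and only the compared groups (4.57, 0.0874). The replicate block left ASIP called in SCF (adjusted p = 0.0164) and over both depots (0.00273). The depot difference of ASIP changed sign as deposited (−0.031), with 64 added (−0.15), with array weights (−0.034) and without HS IMF 2 and HS SCF 4 together (−0.011), and ran from −0.19 to 0.20 with 1 sample left out; no depot or interaction result of ASIP passed in any alternative. For the other members, 0 of 558 alternatives of 24 results passed and 39 changed sign, and 26 of 844 for the named genes did.

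The brighter and dimmer of the 2 POMC and the 2 MC2R probe sets are named so. Sign changes with array weights were MC4R in IMF (0.31) and between depots (0.17), dimmer POMC in IMF (0.015), dimmer MC2R over both depots (−0.076) and between depots (−0.019), ITCH between breeds (−0.033) and between depots (0.0055), and RALY between depots (−0.020). With median centring they were dimmer POMC in IMF (0.073), dimmer MC2R over both depots (−0.064) and brighter POMC between depots (0.020); as deposited dimmer POMC in IMF (0.27) and RALY between depots (−7.66e-05); with 1 added dimmer POMC in IMF (0.00096). Without HS IMF 3 and HS SCF 4 together they were MC4R in IMF (0.31) and between depots (0.19), brighter MC2R in SCF (0.20), brighter POMC in SCF (−0.026), dimmer MC2R over both depots (−0.013), MGRN1 (−0.14), KITLG (0.090), and ITCH between breeds (−0.055) and depots (0.10). Without HS IMF 2 and HS SCF 4 together they were brighter POMC in IMF (−0.055), SCF (−0.030) and both (−0.043), brighter MC2R in SCF (0.19), MC4R between depots (0.81), DPP4 (0.00048), MGRN1 (−0.21), KIT (0.040), KITLG (0.29) and RALY (−0.060). With 1 sample left out, ranges that crossed 0 were −0.95 to 0.31 for MC4R in IMF and −0.78 to 0.53 between depots, −0.30 to 0.36 for dimmer POMC in IMF, −0.058 to 0.082 in IMF, −0.029 to 0.23 in SCF and −0.11 to 0.012 between depots for brighter POMC, −0.38 to 0.19 for brighter MC2R in SCF, −0.030 to 0.11 over both depots and −0.032 to 0.10 between depots for dimmer MC2R, −0.11 to 0.15 for MGRN1, −0.23 to 0.12 for KITLG, and −0.047 to 0.17 between breeds and −0.11 to 0.11 between depots for ITCH. The cause was not tested.

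Counts of probe sets past the threshold were 4 in IMF (0 to 25 over the alternatives), 1 in SCF (0 to 12), 5 over both depots (2 to 45) and 1848 between depots (923 to 3154). The 25 and the 45 were found without HS IMF 2 and HS SCF 4 together, the 12 and the 3154 with array weights, and the 923 without JB IMF 3. The replicate block could not be fitted between depots, which share no numbers. The median breed difference in IMF over all probe sets was 0.096 after quantile normalization, 0.17 after median centring and 0.37 as deposited. Low signals of MC1R, MC4R, MC2R and of ASIP in HS limit what these arrays can show, as do 3 samples a group.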
